A study of Mus musculus with 2 samples.

Results

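ATP-binding cassette (ABC) transporters were described in liver RNA of HFD-fed C57BL/6 mice that carried either AAV-GFP or AAV-Wee1-AS. The members were all genes whose symbol starts with Abc, a subfamily letter from a to g and a digit, with 1 of the 50 matching symbols left out by the rule. They made up 49 of the 45777 genes and 246 of the 129299 transcripts in the table. Mice of both groups were 7 weeks old when the high-fat diet began, and the diet lasted 18 weeks. At week 13, with 5 weeks left, they received virus of serotype AAV9 through the retro-orbital route, and the insert was GFP in the control and the long noncoding RNA Wee1-AS in the other group. The vector used the CMV promoter, which is not restricted to hepatocytes, and the sex of these mice was not given. The comparison asks how the liver transcriptome differs when Wee1-AS is overexpressed under HFD. One library was analysed for each group, while the design text speaks of 4 liver samples, so no difference here had a replicate check and no p-value was computed.

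ABC proteins use the binding and hydrolysis of ATP at paired nucleotide-binding domains to move substrates across membranes. In hepatocytes, members at the canalicular membrane load bile with phospholipid, sterols, conjugated bilirubin and drugs, members at the sinusoidal membrane return conjugates to blood or lipidate HDL, and others serve mitochondria, peroxisomes and lysosomes. Members of subfamilies E and F have no membrane domain and act on ribosomes and translation. Between the Walker motifs of each nucleotide-binding domain lies a signature motif, in its classical form leucine, serine, glycine, glycine and glutamine.

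The AAV-GFP library held 55466182 estimated counts and the AAV-Wee1-AS library 48079335. Of the 49 members, 40 had at least 10 counts in at least 1 library. The other 9 (Abca12, Abca13, Abca14, Abca15, Abca16, Abca17, Abcb5, Abcc8 and Abcg4) were listed at 0 counts in both libraries. Of 7 hepatocyte markers, all were between 0.5 and 2 in ratio, and their summed level was 86258 TPM (transcript abundance per length, scaled to the same sum in each library) with AAV-GFP and 94734 TPM with AAV-Wee1-AS, so the labelled tissue was borne out by its markers. The RNA of Wee1-AS itself was not analysed here.

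Abce1 and Abca6 were among the members furthest up in the AAV-Wee1-AS library, at 4.96-fold and 4.56-fold the AAV-GFP level of scaled counts. Abca1, the exporter that lipidates apolipoprotein A-I, was 2.48-fold higher, and Abcd3, the main ABC protein of the peroxisomal membrane, was 2.52-fold higher. Abcc3, the sinusoidal exporter of glucuronides, was 1.69-fold lower. In all, 13 of the 40 members (32.5%) had a ratio above 2, where 22.2% of 15857 genes did, and 2 members (5%) had a ratio below 0.5, where 8.71% of genes did. Either way, 37.5% of the members and 31.0% of all genes were past 2-fold. The median log2 ratio of the members was 0.09, against -0.02 over all genes, so the family as a whole was centred close to the other genes. These ratios followed base composition in all genes. With the trends of all genes with GC content and transcript length removed (called detrended from here on), 1 member (2.5%) was above 2-fold and 6.94% of all genes were, so the share of higher members went from above to below that of all genes. Detrended, Abce1 was 1.95-fold, Abca6 2.01-fold, Abca1 1.20-fold and Abcd3 1.45-fold higher, and 12 of the 40 members turned direction. The share of all genes that turned was not counted, here or for the groups and lists below. The direction of Abca6 turned with curated transcripts alone (log2 ratio -0.51). Of the 13 higher members, 11 had a 95% counting interval wholly above 2 (16.0% of all genes). Of the 2 lower members, 1 had an interval wholly below 0.5 (3.72% of all genes). At any size, 19 members had an interval wholly above no change (39.1% of all genes), 16 had one wholly below it (38.0%) and 5 had one that included it (22.9%). The intervals are exact binomial (Clopper-Pearson) and cover counting error only. In bulk liver RNA, fewer cells of a type and less RNA per cell cannot be told apart.

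**Figure D1:**
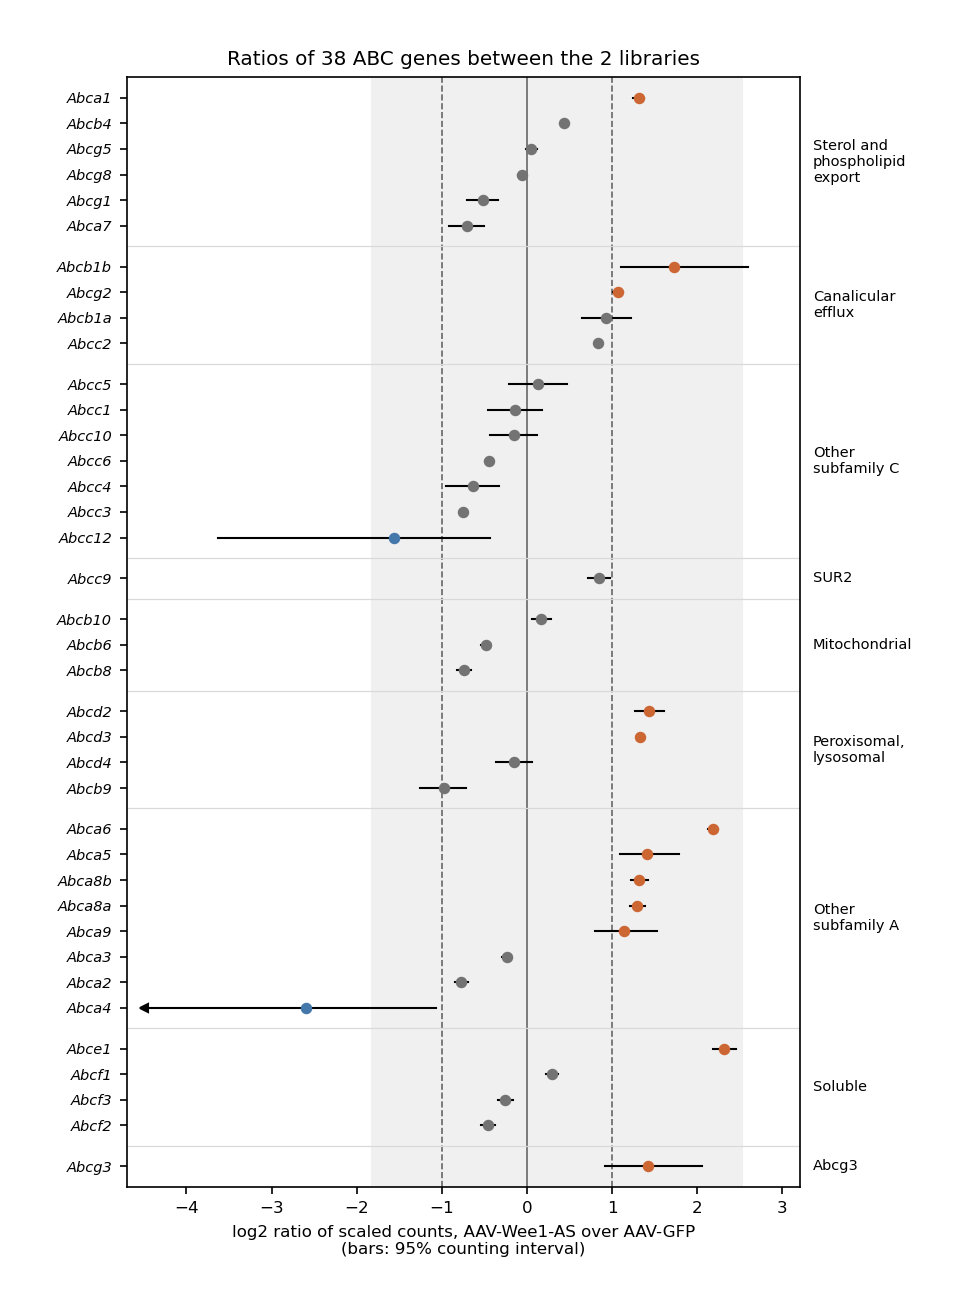
Log2 ratio of scaled counts (x axis, AAV-Wee1-AS over AAV-GFP, 1 library each) for 38 ABC genes past the count filter, grouped by role, with 95% counting intervals as bars. Dashed lines mark 2-fold, the grey band holds the middle 95% of all 15857 genes (-1.82 to 2.52), orange points are above 2-fold and blue points below, and the arrow of Abca4 marks an interval with no lower end. Of the genes drawn, all except Abca4 lie inside the band.

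Levels between genes were compared in TPM, which corrects for transcript length. The summed level of the 49 members was 1107 TPM with AAV-GFP and 1346 TPM with AAV-Wee1-AS, and 5 genes held 52.3% and 57.9% of it. With AAV-GFP the order was led by Abcc3 (205 TPM), Abcd3 (124 TPM), Abcb4 (90.9 TPM), Abcc2 (80.4 TPM) and Abcb6 (78.4 TPM). With AAV-Wee1-AS it was led by Abcd3 (307 TPM), Abcc2 (141 TPM), Abcb4 (120 TPM), Abcc3 (119 TPM) and Abcg2 (92.3 TPM). Abcc3 thus went from the first to the fourth place and Abcd3 took the first. Abcc3 held 18.5% of the summed TPM of the members with AAV-GFP and 8.84% with AAV-Wee1-AS, and Abcd3 held 11.2% and 22.8%. Of the 39 pairs of neighbours in the order, 18 with AAV-GFP and 19 with AAV-Wee1-AS had overlapping counting intervals, so their order was not resolved by depth. At the other end, 18 members with AAV-GFP and 15 with AAV-Wee1-AS were under 1 TPM, the 9 members at 0 included.

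**Figure D2:**
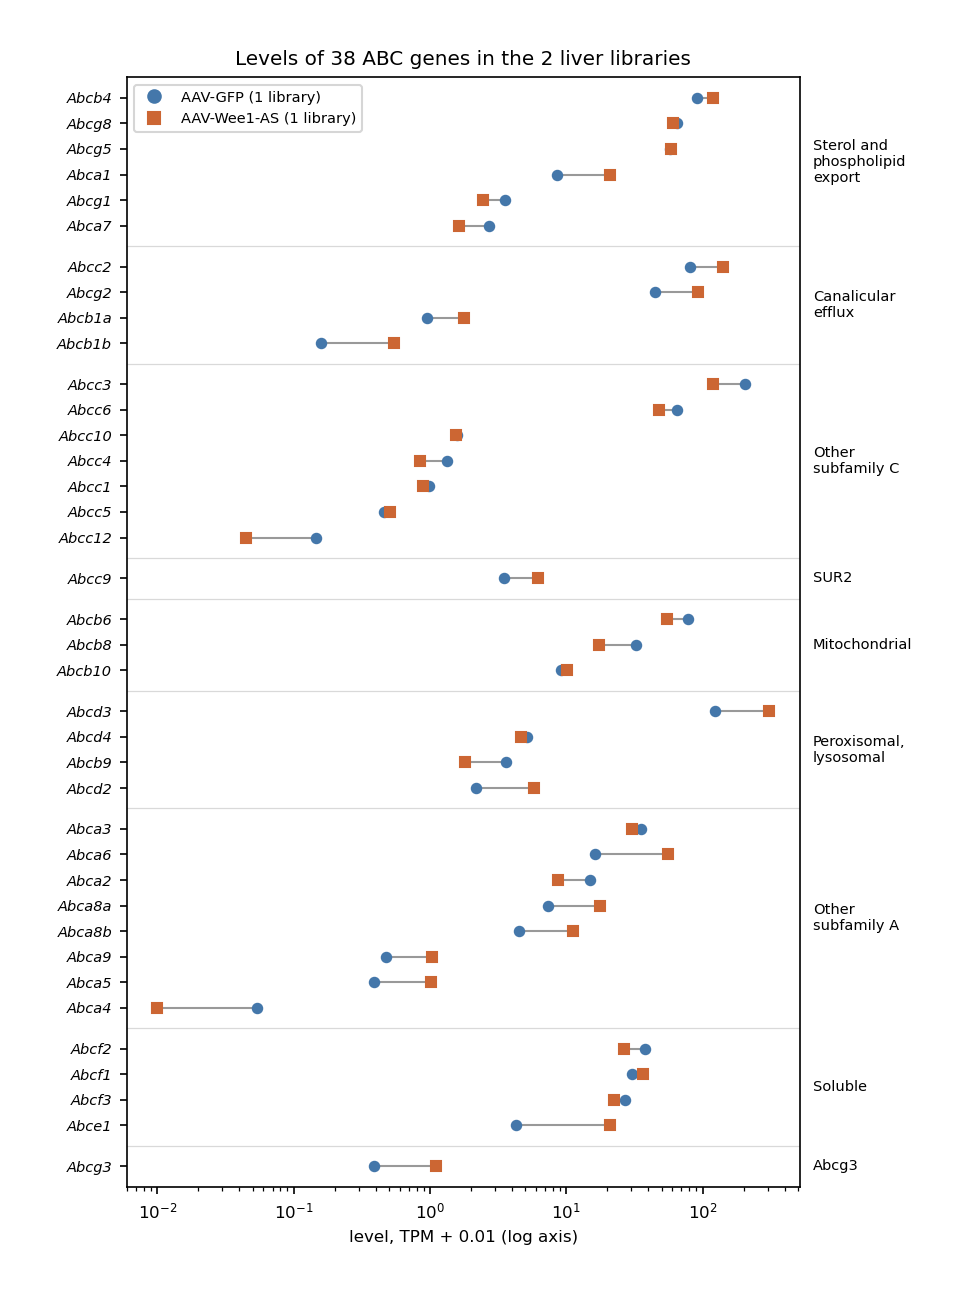
Levels of 38 ABC genes past the count filter (x axis, TPM + 0.01 on a log axis) in the AAV-GFP library (circles) and the AAV-Wee1-AS library (squares), grouped by role, with a line joining both values of a gene. Abcd3, Abcc2 and Abcg2 move to the right among the highest levels, Abcc3 moves to the left, and Abcg5 and Abcg8 hardly move.

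Among exporters of sterols and phospholipids, Abca1 alone was past 2-fold of 6 members past the filter (31.0% of all genes either way). Abca1 (chr4:53030789-53159988, mm10) had 2880 counts with AAV-GFP and 5957 with AAV-Wee1-AS (8.51 and 20.8 TPM), a log2 ratio of 1.31 with a counting interval of 1.25 to 1.38. The 3 canalicular exporters of this group, at higher levels, differed less in scaled counts. Detrended, Abca1 (0.26) was no longer past 2-fold and lay beside Abcb4 (0.25), Abcg5 (0.25) and Abcg8 (0.28). Abcb4, the floppase that supplies bile with phosphatidylcholine, had 12028 and 13542 counts (log2 ratio 0.43, interval 0.40 to 0.47). Abcg5 and Abcg8, the half-transporters that together excrete sterols into bile, had 4546 and 3923 counts (log2 ratio 0.05, interval -0.01 to 0.11) and 7635 and 6113 counts (log2 ratio -0.06, interval -0.11 to -0.01). For Abcg5 the direction turned with scaling by library totals or by the upper quartile, and for Abcg8 it turned with curated transcripts alone and when detrended, so neither gene had a direction that held. Abcg1, which passes cholesterol to HDL, and Abca7, a phospholipid exporter, were lower. Abcg1 had 680 and 395 counts (log2 ratio -0.52) and Abca7 had 601 and 306 (log2 ratio -0.71). Abcg4 was listed at 0.

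Abcg5 and Abcg8 lie head to head on chromosome 17, and the interval between their starts is shown because both genes kept nearly equal levels in both libraries, 57.2 and 58.3 TPM for Abcg5 and 64.5 and 60.7 TPM for Abcg8. The interval has 109 bases (chr17:84683012-84683120, GRCm38, plus strand, Abcg5 to the left on the minus strand and Abcg8 to the right), from the promoter sequences of RefSeq. Capitals mark a TATA box, searched as TATAAA on both strands and found on the minus strand, the strand of Abcg5. By position the box lies nearer to the start of Abcg8, and which gene uses it was not tested. Of 32851 promoters, 5.9% hold these letters in the same number of bases before the start.
Abcg5 to Abcg8: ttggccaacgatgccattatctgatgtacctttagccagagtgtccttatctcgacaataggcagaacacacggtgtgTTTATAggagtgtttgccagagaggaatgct

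The partners of sterol efflux and known LXR target genes were within 2-fold in 10 of 11 cases, and Nceh1, a cholesterol ester hydrolase, was above it (log2 ratio 1.07), where 22.2% of all genes were. Apoa1, the acceptor of sterol from Abca1, had a log2 ratio of -0.26, and Srebf1, a known LXR target, had -0.60. Of 11 receptors and factors known to act on ABC genes, 1 was past 2-fold (31.0% of all genes either way), Nr5a2 (815 and 2184 counts, log2 ratio 1.68). The LXR genes Nr1h2 and Nr1h3 were lower (log2 ratios -0.93 and -0.62), the FXR gene Nr1h4 was slightly higher (0.23) and Ppara was higher (0.81). These directions rested in part on the trends with base composition. Detrended, 6 of the 11 partners and 6 of the 11 receptors and factors turned, with the share of all genes not counted. None was then above 2-fold (6.94% of all genes) and 1, Lpl, was below 0.5 (8.90%). Apoa1 then had 0.46, Srebf1 -0.09, Nr1h2 -0.14, Nr1h3 0.10 and Nr1h4 -0.04, while Ppara had 0.98 and Nr5a2 0.51. Macrophages also use Abca1 and Abcg1. Of 4 markers of lipid-associated macrophages, 3 had ratios below 0.5 (Gpnmb 831 and 62 counts, Trem2 322 and 62, Cd9 1199 and 411), where 8.71% of all genes did, all 4 did when detrended, where 8.90% did, and their summed level was 86.3 and 49.2 TPM. Of 6 Kupffer cell markers, Vsig4 and Timd4 were above 2-fold (22.2% of all genes) and none was below 0.5 (8.71%). None was past 2-fold when detrended, and their summed level was 384 and 302 TPM. The part of these cells in the values of Abca1 and Abcg1 was not tested.

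All 4 members of canalicular drug and anion efflux had more scaled counts with AAV-Wee1-AS, 2 of them past 2-fold (22.2% of all genes), and their summed level was 126 and 236 TPM. Detrended, 3 of the 4 turned direction, none was past 2-fold and the median log2 ratio was -0.23. Abcg2 then had -0.56, Abcc2 -0.43, Abcb1a -0.02 and Abcb1b 0.99. Those values used the longest annotated transcript, which has 5717 bases for Abcg2 and 8027 for Abcc2. The counted transcripts had a mean length of 2191 and 5393 bases. With the length trend alone removed, on the counted transcripts, Abcg2 had 1.23 and Abcc2 had 0.30. Removal of both trends on the counted transcripts was not tested. Abcg2, the breast cancer resistance protein, which exports urate, porphyrins and drugs, had 3233 and 5653 counts (44.9 and 92.3 TPM, log2 ratio 1.07, interval 1.01 to 1.13). Abcc2, which exports conjugated bilirubin, had 14277 and 21283 counts (80.4 and 141 TPM, log2 ratio 0.84, interval 0.81 to 0.87). Counting error alone thus separated Abcc2 from no change and from 2-fold, while its direction did not hold when detrended. P-glycoprotein has 2 genes in the mouse, and both were low in these livers. Abcb1a had 161 and 256 counts (log2 ratio 0.92, interval 0.64 to 1.23) and Abcb1b had 22 and 65 counts (log2 ratio 1.73, interval 1.11 to 2.60).

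The paralogs Abcb1a and Abcb1b share sequence, which limits how far their counts can be told apart. Of all 100-base windows of their annotated transcripts, 9.23% of those of Abcb1a and 6.04% of those of Abcb1b also occur in another gene, each mostly in the other paralog. The stretch around the first signature motif is shown as an example, from the coding sequence of GENCODE M21 on GRCm38, exon 14 of each gene (chr5:8702814-8702858, chr5:8825134-8825178 and chr5:8928428-8928472, plus strand), with the 15 bases of the motif in capitals. The 45 bases of Abcb1a and Abcb1b do not differ at any position, and Abcb4 differs from each at 1 position. Between Abcb4 and other genes, only 0.288% of windows are shared.
Abcb1a: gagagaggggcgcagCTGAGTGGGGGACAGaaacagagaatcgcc
Abcb1b: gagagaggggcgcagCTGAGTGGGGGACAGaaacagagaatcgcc
Abcb4: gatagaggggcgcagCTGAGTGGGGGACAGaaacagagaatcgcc

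Abcg2 can start at several first exons, and nearly all of its counts fell on 1 of them. The 2 transcripts that start at chr6:58640501 and chr6:58640503 held 3201 of the counts with AAV-GFP (99.0%) and 5601 with AAV-Wee1-AS (99.1%). The bases before this start are shown because nearly all counts of both libraries fell on transcripts that begin there (RefSeq, chr6:58640296-58640500, GRCm38, plus strand, 205 bases). Capitals mark GC boxes, searched as GGGCGG on both strands and found at 2 places on the minus strand, and 31.2% of 32851 promoters hold 1 or more in as many bases before the start. The window has a GC content of 64.4%, while the longest annotated Abcg2 transcript has 39.2%.
Abcg2: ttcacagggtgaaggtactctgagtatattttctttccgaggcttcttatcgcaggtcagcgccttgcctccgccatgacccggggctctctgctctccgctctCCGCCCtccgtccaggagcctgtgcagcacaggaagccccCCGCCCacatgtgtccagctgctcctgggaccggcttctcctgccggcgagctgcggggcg

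Of 7 genes for the canalicular membrane apart from ABC transporters, 3 were above 2-fold (22.2% of all genes) and none below 0.5 (8.71%), and when detrended none was past 2-fold. Rdx, the actin linker radixin that holds Abcc2 at the canaliculus, had 2159 and 6986 counts (log2 ratio 1.96, detrended 0.99), and the lipid flippase Atp8b1 and its partner Tmem30a had log2 ratios of 1.54 and 1.40 (detrended 0.52 and 0.06). Slc9a3r1, a scaffold that binds radixin, had 13945 and 10825 counts (log2 ratio -0.10, detrended 0.66).

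In the rest of subfamily C, no member was above 2-fold (22.2% of all genes), 1 of 7 was below 0.5 (8.71%), and the summed level was 274 and 170 TPM. Abcc3 accounted for most of that difference, with 33813 and 16663 counts (log2 ratio -0.76, interval -0.78 to -0.73). Abcc6, which releases ATP from hepatocytes and so protects tissues from calcification, had 12713 and 7753 counts (log2 ratio -0.45, interval -0.49 to -0.41). Both genes are sinusoidal exporters of hepatocytes, and both were lower where canalicular Abcc2 was higher. Detrended, Abcc2 was lower as well (log2 ratio -0.43), Abcc3 stayed lower (-0.58) and Abcc6 was close to no change (-0.06). Abcc4, a sinusoidal exporter of bile acids and cyclic nucleotides, had 251 and 134 counts (log2 ratio -0.63, interval -0.96 to -0.33). Abcc1 (194 and 147 counts), Abcc5 (153 and 139) and Abcc10 (252 and 188) had counting intervals that included no change. Abcc12 had 22 and 5 counts, a log2 ratio of -1.56 with an interval of -3.63 to -0.44, so that at this depth a 2-fold difference was not resolved.

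Abcc9, the sulfonylurea receptor SUR2 that regulates ATP-sensitive potassium channels, had 857 and 1283 counts (log2 ratio 0.84, interval 0.72 to 0.97). Its direction turned when detrended (-0.24) and with the length trend alone removed (-0.05). Kcnj8, the pore subunit that pairs with it in vessels, had 254 and 166 counts (log2 ratio -0.35, detrended 0.11), and Kcnj11 and the other receptor gene, Abcc8, were listed at 0 counts in both libraries. Vessel wall cells are a known site of Abcc9. Of 4 smooth muscle and pericyte markers, Cnn1 was at 0 in both libraries, Acta2 and Tagln were below 0.5 in ratio (8.71% of all genes) and Myh11 was within 2-fold, and their summed level was 19.3 and 4.11 TPM. Detrended, Acta2 (-1.66) and Tagln (-2.16) stayed below 0.5, where 8.90% of all genes were. Of 7 stellate cell markers, 3 were below 0.5 (the collagen genes Col1a1, Col1a2 and Col3a1, beside 8.71% of all genes) and 2 above 2 (Lrat and Rgs5, with 0.03 and 0.25 when detrended, beside 22.2% of all genes), with a summed level of 118 and 53.5 TPM. The 3 collagen genes stayed below 0.5 when detrended (Col1a1 -2.04, Col1a2 -1.79 and Col3a1 -2.03). The part of these cells in the value of Abcc9 was not tested.

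The mitochondrial members lay on both sides of no change. Abcb10, which supports heme synthesis, had 1290 and 1209 counts (log2 ratio 0.17, interval 0.06 to 0.28). The direction of Abcb10 turned with scaling by the upper quartile and with the length trend alone removed. Abcb6, a porphyrin transporter, and Abcb8, of the inner membrane, were lower. Abcb6 had 7850 and 4669 counts (log2 ratio -0.49) and Abcb8 had 3208 and 1600 (log2 ratio -0.74), and detrended they had -0.15 and -0.11. With curated transcripts alone, Abcb8 had -1.65. For Abcb6, 45.2% of the 100-base windows also occur in Gm29253, a gene model that overlaps its exons on the same strand. Gm29253 has no counts of its own in these data, so any of its reads there cannot be told from those of Abcb6.

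Of 12 genes of heme and iron-sulfur synthesis, none was above 2-fold, where 22.2% of all genes were. Alas1, the rate-limiting enzyme of heme synthesis in liver, was below 0.5 (61181 and 23535 counts, log2 ratio -1.11, detrended -0.74), where 8.71% of all genes were. Cpox was the highest of them (log2 ratio 0.58), and Nfs1 and Iscu, of iron-sulfur assembly, had -0.51 and -0.42. Detrended, 5 of the 12 turned and none was past 2-fold. Red blood cells also express heme genes, and the 5 erythroid markers had log2 ratios of -0.94 to -0.37, with a summed level of 3357 and 1789 TPM. Detrended, their median went from -0.89 to -0.12 and Alas2 turned (0.12). The part of these cells in the values of Abcb6 and Abcb10 was not tested.

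Of the 5 peroxisomal and lysosomal members, 2 were above 2-fold (22.2% of all genes) and none below 0.5 (8.71%). Abcd3, also called PMP70, which carries long-chain and branched acyl groups and bile acid precursors into peroxisomes, had 14236 and 29873 counts (124 and 307 TPM, log2 ratio 1.33, interval 1.30 to 1.36). Abcd2, a carrier of very long-chain and polyunsaturated acyl groups, had 410 and 922 counts (2.17 and 5.74 TPM, log2 ratio 1.43, interval 1.26 to 1.60). Detrended, neither gene was past 2-fold, with 0.54 for Abcd3 and -0.06 for Abcd2, so the direction held for Abcd3 and turned for Abcd2. Abcd4, which helps release cobalamin from lysosomes, had 442 and 331 counts (log2 ratio -0.15, interval -0.36 to 0.06). Abcb9, a lysosomal peptide transporter, had 396 and 167 counts (log2 ratio -0.97, interval -1.25 to -0.72), just inside the 2-fold limit, and detrended it had -0.36.

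Of 14 genes of peroxisomal import and beta-oxidation, 1 was above 2-fold (22.2% of all genes) and none below 0.5 (8.71%). That gene was Acsl1, an acyl-CoA synthetase (33910 and 56580 counts, log2 ratio 1.00), and its counting interval of 0.98 to 1.02 included 2-fold. Detrended it had -0.06, none of the 14 was past 2-fold and 4 turned. Pex3 and Scp2 had log2 ratios of 0.99 and 0.70 (detrended -0.26 and 0.05). Pex19, Pex5 and the thiolase Acaa1b had -0.58, -0.61 and -0.84 (detrended -0.91, -0.11 and -0.07). Abcd3 was therefore higher beside peroxisomal genes that lay on both sides of no change.

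Among the other members of subfamily A, 8 of 14 were past the filter, with 5 above 2-fold (22.2% of all genes) and 1 below 0.5 (8.71%). The 5 higher genes form 1 cluster on chromosome 11, in the order Abca8b, Abca8a, Abca9, Abca6 and Abca5, over 406 kb (chr11:109932206-110337723). Abca6 had 2865 and 10879 counts (16.1 and 55.7 TPM, log2 ratio 2.19, interval 2.13 to 2.25), and its direction turned with curated transcripts alone (-0.51). Abca8a had 1396 and 2857 (log2 ratio 1.30) and Abca8b had 1093 and 2275 (log2 ratio 1.32). Abca5 (104 and 234 counts, log2 ratio 1.41) and Abca9 (101 and 188 counts, log2 ratio 1.14) were low, and the interval of Abca9 reached below 2-fold (0.80 to 1.52). Detrended, the log2 ratios of the cluster spanned -0.47 to 1.01, and 2 of the 5 were above 0 (Abca6 1.01 and Abca8a 0.046). The substrates of these genes in liver are little known. Outside the cluster, Abca3, the lamellar body lipid transporter, had 7436 and 5255 counts (log2 ratio -0.24) and Abca2, of late endosomes, had 4085 and 1992 (log2 ratio -0.77). Abca4, the retinoid transporter of photoreceptors, had 11 counts with AAV-GFP and 0 with AAV-Wee1-AS, at least 3.05-fold lower if the library at 0 is set to a floor of 3 counts and the 11 counts are taken as exact. With the counting error of both libraries, the log2 ratio reached up to -1.06.

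The coding sequence of the cluster is poor in G and C, and 4 of its 5 genes hold the classical signature motif. It is shown in exon 14 of each, on the minus strand of GRCm38 (Abca5 chr11:110304123-110304167, Abca8a chr11:110069819-110069863, Abca8b chr11:109967059-109967103, Abca9 chr11:110145109-110145153), with the 15 bases of the motif in capitals.
Abca5: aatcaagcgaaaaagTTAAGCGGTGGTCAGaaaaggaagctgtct
Abca8a: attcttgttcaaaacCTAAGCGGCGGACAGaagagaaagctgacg
Abca8b: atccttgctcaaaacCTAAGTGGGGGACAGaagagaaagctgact
Abca9: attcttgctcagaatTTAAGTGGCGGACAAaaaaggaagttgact

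The same motif is coded with other bases in the 3 members of lowest ratio that have it within 1 exon and have 100 or more counts in both libraries. These are Abcb9 (exon 11, chr5:124071795-124071839, minus strand), Abcb8 (exon 16, chr5:24408570-24408614, plus strand) and Abcc4 (exon 12, chr14:118611726-118611770, minus strand). Their 45-base windows have a GC content of 66.7 to 68.9%, and those of the cluster 37.8 to 46.7%. The windows of Abcb1a and Abcb1b shown above, of genes that were also higher in scaled counts, have 62.2%, so single windows do not all follow the ratio. Both sets were chosen after the ratios were seen, and they are examples only.
Abcb9: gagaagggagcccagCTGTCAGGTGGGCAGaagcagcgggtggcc
Abcb8: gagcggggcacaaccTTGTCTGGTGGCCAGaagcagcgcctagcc
Abcc4: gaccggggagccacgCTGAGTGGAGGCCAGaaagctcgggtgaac

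Of the 4 soluble members, Abce1, which splits ribosomes after termination, was the only one past 2-fold (31.0% of all genes either way), with 538 and 2231 counts (4.28 and 21.0 TPM, log2 ratio 2.31, interval 2.18 to 2.45). Detrended it had 0.97, short of 2-fold. Abcf1, which acts with initiation factor eIF2, had 3127 and 3200 counts (log2 ratio 0.30), Abcf2 had 3262 and 1975 (log2 ratio -0.46) and Abcf3 had 2892 and 2022 (log2 ratio -0.25). Of 7 factors that work beside them, Etf1 and Hbs1l were above 2-fold (log2 ratios 1.43 and 1.10, beside 22.2% of all genes). None was below 0.5 (8.71% of all genes), and Pelo, the partner of Hbs1l in ribosome rescue, had -0.82. Detrended, none of the 7 was past 2-fold (Etf1 0.57, Hbs1l 0.93, Pelo -0.08), Abcf3 turned (0.10) and Abcf2 was close to no change (-0.0028). Abcg3, a gene of rodents, had 39 and 90 counts (log2 ratio 1.42, interval 0.91 to 2.05), and detrended it had 0.40. Of ABC proteins with other names, the antigen peptide transporters Tap1 and Tap2 had log2 ratios of -0.60 and -0.44 (detrended -0.16 and 0.13), and Cftr had 0 and 2 counts.

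The ratio of a member followed its base composition. Over the 40 members past the filter, the log2 ratio and the GC content of the longest annotated transcript had a Spearman correlation of -0.82 (Pearson -0.80), and over 15109 genes the Spearman correlation was -0.67. These are correlations across genes of 1 pair of libraries, which are not independent replicates. All 13 members above 2-fold had a GC content of 37.9 to 47.5%, and all 19 members with a ratio below 1 had 48.6 to 59.4%. Those 2 ranges did not overlap. The 21 members with a ratio above 1 had 37.9 to 55.2%, which overlaps the range of those below 1. With a split at 48%, chosen after the values were seen, all 16 members under it were higher with AAV-Wee1-AS and 5 of 24 members over it were. Of all genes, 82.0% of those under 48% GC and 27.0% of those over it were higher, and 46.5% and 5.30% were above 2-fold. The pattern lay in the coding sequence too, where the correlation with GC content was -0.80 and with GC at the third codon position -0.77. At the third position, the members above 2-fold had 37.2 to 63.6% GC and the members below 1 had 60.7 to 81.4%. Over the members, the Spearman correlation of the ratio with the length of the longest annotated transcript was 0.08. The length trend of all genes was removed with another measure, the mean length of the deposited transcripts weighted by counts. After that, 7 in place of 13 members were above 2-fold and 9 in place of 2 below 0.5, and Abca1 had 0.21.

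**Figure D3:**
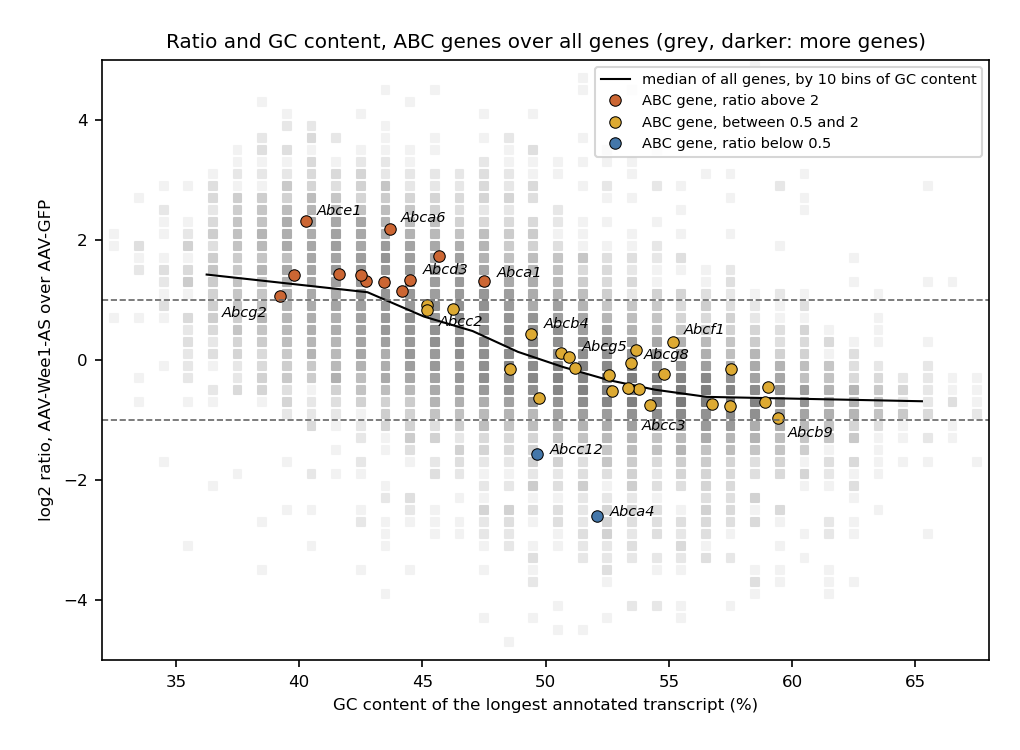
Log2 ratio (y axis, AAV-Wee1-AS over AAV-GFP) against the GC content of the longest annotated transcript (x axis, %) for 38 ABC genes (circles) over all genes with a GC value (grey squares, darker where there are more). The black line joins the medians of all genes in 10 bins of GC content, from 1.42 in the lowest bin to -0.69 in the highest. Of the 38 members drawn, 34 lie within 1 log2 unit of the median of their bin. The share of all genes that do was not counted.

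The trends of the ratio with GC content and length were removed by local regression over all genes. With both removed, 1 of the 40 members was above 2-fold (6.94% of all genes) and 2 were below 0.5 (8.90% of all genes). The member above was Abca6 (log2 ratio 1.01), and those below were Abca4 and Abcc12, with the fewest counts. Abcb1b and Abce1 had 0.99 and 0.97. Abcf1 went up to 0.81, Abcd3 had 0.54 and Abca1 had 0.26. The 12 members that changed side were Abcg2 (-0.56), Abca5 (-0.47), Abcc2 (-0.43), Abca8b (-0.27), Abcc9 (-0.24), Abcc5 (-0.15), Abca9 (-0.10), Abcd2 (-0.06) and Abcb1a (-0.02), which went down, and Abcg8 (0.28), Abcc10 (0.16) and Abcf3 (0.10), which went up. Abcc4 came to the lower 2-fold line without passing it, and Abca2 (-0.75), Abcc3 (-0.58) and Abcg1 (-0.54) stayed lower. Of the 13 members above 2-fold, 8 stayed above no change. The values of Abcg2 and Abcc2 used annotated transcripts longer than those counted. Abcd4 did too, with 3698 bases against a counted mean of 2572. For Abca6 the annotated transcript was shorter, 5240 bases against a counted mean of 6950, so its value of 1.01 has the same limit. For Abcc5 the lengths were 5811 and 10433 bases. The Spearman correlation with GC content was -0.22 after the removal. Whether the trend came from the livers or from the making of the libraries cannot be told apart with 1 library a group.

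**Figure D4:**
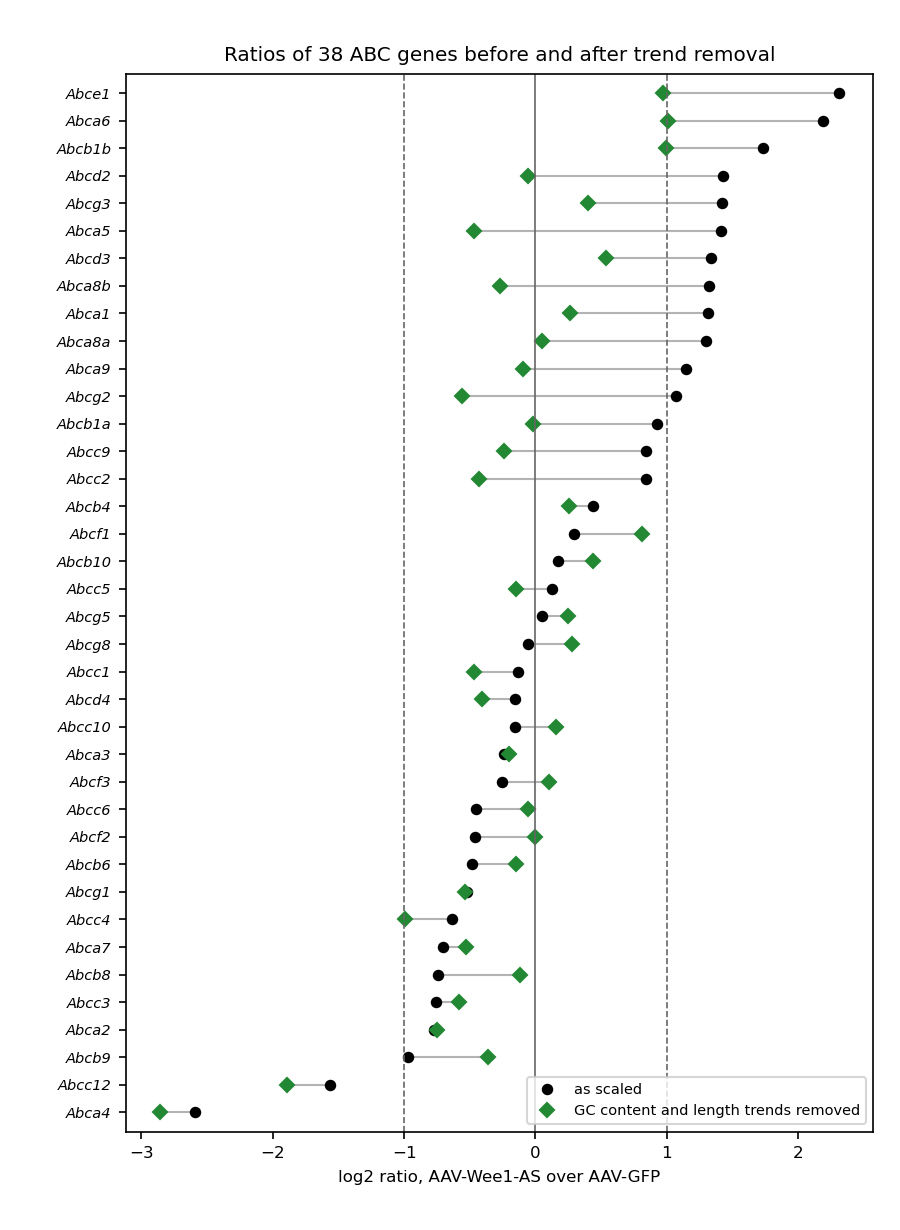
Log2 ratio of 38 ABC genes (x axis, AAV-Wee1-AS over AAV-GFP) as scaled (black circles) and with the trends of all genes with GC content and length removed (green diamonds), ordered by the first. Of the 12 genes drawn right of the upper 2-fold line, only Abca6 stays there, at 1.01.

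The table also gives estimates for single transcripts. Of 36 members with 100 or more counts in both libraries, 27 had 2 or more transcripts with counts, and in 8 of these a transcript changed its share of the gene's counts by more than 20 percentage points. In 7 of the 27, another transcript led in each library. In 11 of the 27, no share moved by more than 5 points, among them Abcc2, Abcd3 and Abcc3. The same changes were not counted over all genes, so these counts do not set the family apart. Of the 15 members past 2-fold, 11 had a value from curated transcripts alone. For Abcg2 that value covered little of the gene. Its curated transcripts with counts held 24 and 45 and 0 and 7 counts, of 3233 and 5653. Among the 11, Abca6 was the one whose direction turned. A transcript of 5240 bases held 61.6% (interval 59.8 to 63.4%) of its counts with AAV-GFP and 8.77% (8.24 to 9.32%) with AAV-Wee1-AS, and one of 7476 bases held 27.1% (25.5 to 28.8%) and 88.0% (87.4 to 88.6%). The longer transcript reaches 2182 bases further at the low coordinate, its 3′ end, and went from 776 to 9576 counts, while the shorter went from 1764 to 954. With curated transcripts alone, which leaves out the longer one, the log2 ratio of Abca6 was -0.51.

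In Abca7, a noncoding transcript model held 0 of 601 counts with AAV-GFP and 294 of 306 with AAV-Wee1-AS. Noncoding models also led with AAV-Wee1-AS in Abca3 (138 of 7436 and 2746 of 5255 counts) and Abcc10 (0 of 252 and 114 of 188 counts). With curated transcripts alone, which leaves these and other predicted models out, Abca7 had 601 and 0 counts and Abcc10 had a log2 ratio of -3.95, so both were below 0.5. Such transcripts overlap the coding ones over most of their length, and the shares are estimates that divide the same reads. A gene's summed TPM depends on this division, since the transcripts differ in length, and Abca6 was 4.56-fold higher in scaled counts and 3.45-fold higher in TPM.

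**Figure D5:**
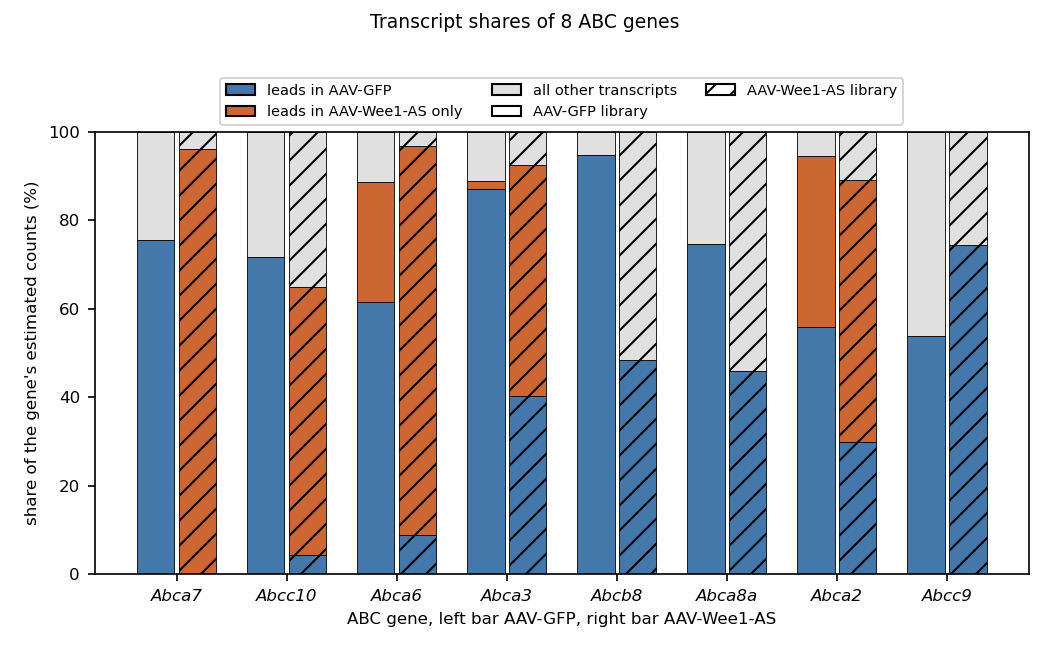
Share of a gene's estimated counts (y axis, %) held by single transcripts in the AAV-GFP library (left bars) and the AAV-Wee1-AS library (right, hatched bars), for the 8 ABC genes in which a share moved by more than 20 points. Blue is the transcript that leads with AAV-GFP, orange the one that leads with AAV-Wee1-AS where it is another, and grey all others.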

How the data were processed

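Liver RNA was measured by poly-A RNA sequencing in 1 AAV-GFP and 1 AAV-Wee1-AS library, grouped by their titles. Libraries were made with a stranded mRNA kit. The submitters' processing notes name Trimmomatic 0.38, HISAT2 2.1.0, SAMtools 1.9, StringTie 2.1.3b and the build mm10, with no roles given. The authors deposited 1 table of RefSeq transcripts with estimated counts, FPKM values and TPM values per library. As deposited, the estimated counts carry no normalization and are whole numbers, rounded up from FPKM times length. As deposited, FPKM values are scaled per kilobase and library, and TPM values also to the same sum per library. Reads assigned to overlapping transcripts are estimates, so sums per gene are firmer than values of transcripts.

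Counts were summed per symbol. TMM factors (edgeR 4.0.16, R 4.3.3) were computed over all genes with a count, genes that reached 10 counts in either library were kept, and log2 ratios used a prior count of 2. The Clopper-Pearson interval (95%) of a ratio covers counting error of 2 libraries, not the conditions. For the fold bound of Abca4 alone, the library at 0 was set to a floor of 3 counts. The counts past 2-fold and the figures of ratios used the Abca4 log2 ratio of -2.59 from the prior count of 2. A ratio above 2 or below 0.5, the limits of the study, was counted, with no test. GC content and length came from the longest transcript in GENCODE M21 (GRCm38), matched by NCBI gene ID or symbol for 15109 of 15857 genes. Trends were removed by lowess (span 0.3, 5 cycles). Removal of the length trend alone used the mean length of the deposited transcripts, weighted by counts. The procedure was tested on simulated data. RefSeq promoters (GRCm38) matched 37 members by symbol. Every member past the filter was named, save 2 that are not reported here and stay in the counts and summed levels. Of the other lists, members with the most counts or the largest ratios were named. The members and lists were chosen with earlier results of these data known. Alternatives were other scalings, filters, prior counts, units, curated transcripts alone and the removal of trends.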

Additional observations from a re-analysis of the deposited data

How the results depend on the processing

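With 1 library per group, leaving out a replicate was not possible. No paired analysis was possible because each group has 1 library. The count of members above 2-fold, 13, was 6 on FPKM values and 9 on TPM values (both with a pseudocount of 1), 7 with the length trend removed and 1 with GC content and length trends removed, and 11 to 13 under the other alternatives. The count below 0.5, 2, was 0 with a minimum of 50 counts in either library, 0 on FPKM, 0 on TPM and 9 with the length trend removed. Of all genes, 3527 were above 2-fold as reported, 1029 on FPKM, 1608 on TPM and 1049 with GC content and length trends removed. Below 0.5 there were 1381 as reported, 2232 with scaling by the upper quartile, 2126 with no count filter, 825 with the minimum of 50 counts, 307 on FPKM and 438 on TPM. With the upper quartile, 2938 genes were above 2-fold and the median of all genes was -0.22, so counts past 2-fold were closer to each other while the centre moved below no change. A pseudocount shrinks the ratios of low genes by construction, and for the other alternatives the cause was not tested. The median of the members stayed between -0.14 and 0.15. Removal of GC content and length trends reversed Abca5 (-0.47), Abca8b (-0.27), Abca9 (-0.10), Abcd2 (-0.060) and Abcg2 (-0.56), and curated transcripts alone reversed Abca6 (-0.51). The reversal of Abcg2 used an annotated transcript of 5717 bases, while its counted transcripts had a mean length of 2191. With the length trend alone removed, Abcg2 had 1.23. Among members within 2-fold, removal of GC content and length trends turned 7 (Abcb1a, Abcc10, Abcc2, Abcc5, Abcc9, Abcf3 and Abcg8), removal of the length trend 3 (Abcb10, Abcc5 and Abcc9), curated transcripts 3 (Abcc1, Abcd4 and Abcg8), upper-quartile scaling 3 (Abcb10, Abcc5 and Abcg5) and scaling by library totals 1 (Abcg5). Curated transcripts gave a value for 35 of the 40 members. For Abcc1 that value rested on 9 of 194 counts with AAV-GFP and 17 of 147 with AAV-Wee1-AS. Depth limits Abca4, Abcc12, Abcb1b and Abcg3, each under 100 counts in both libraries.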
